A study of Mus musculus with 4 samples.

Results

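A group of 10 genes of the DNA replication machinery were followed in pressure-loaded mouse hearts with and without MAFbx. They are the helicase genes Mcm2 to Mcm7, the clamp gene Pcna, and the nucleotide supply genes Rrm1, Rrm2 and Tk1. The members were set by name, each through the probe set whose only annotated symbol is that gene, taking the probe set with the highest mean over the 4 arrays where there were several. All 10 were measured, among 19938 genes in all, and all 10 passed the filter on dim signal that left 14914 genes for testing.

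The series compared whole-heart total RNA from 1 wildtype mouse heart and 3 MAFbx KO hearts, all taken 1 week after TAC (transverse aortic constriction, in which the aorta is narrowed by surgery so that the left ventricle pumps against a higher pressure). MAFbx, also called atrogin-1, is the F-box subunit of a muscle ubiquitin ligase and is encoded by Fbxo32. Both genotypes had the surgery, and no unoperated heart was analysed here, so the comparison is between genotypes under load. The labels give neither the strain, age and sex of the mice nor the construction of the knockout allele, and they do not state that numbered hearts are separate animals. The p-values therefore measure only the spread between these samples, which may be technical and here comes from the knockout arrays alone.

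Before a cell copies its DNA, the origin recognition complex with Cdc6 and Cdt1 loads the ring of Mcm2 to Mcm7 onto replication origins, and Cdc45 and the GINS complex then turn that ring into the active helicase. Pcna is the sliding clamp that holds DNA polymerases on the template. Ribonucleotide reductase, made of Rrm1 and Rrm2, makes deoxynucleotides, and Tk1 salvages thymidine. Most of these genes are E2F targets that are transcribed as cells enter S phase. Adult cardiomyocytes seldom replicate their DNA, whereas fibroblasts, endothelial cells and macrophages of the loaded heart can divide.

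RefSeq promoter windows (GRCm38.p6, 250 bases before to 50 bases after the annotated start) were matched by symbol for 9 of the 10 members. Mcm4 was not matched. The windows were searched on both strands for the E2F words TTTCCCGC, TTTGGCGC, TTTCGCGC and TTTGCCGC. A word was found for 4 of the 9 members, Mcm3, Mcm5, Mcm6 and Mcm7. By gene, the same words occurred for 4.12% of the other genes tested that had a window, and by window in 2.26% of all 32851 promoter windows of this length. They were also found in the windows of 22 of 66 other replication genes that were tested and matched (33.3%). The 4 stretches below are shown because they carry these matches, which are in capitals. Each reads 5′ to 3′ on the strand of its gene. The Mcm3 stretch lies at chr1:20820266-20820295 (minus strand, positions 18 to 47 of the transcript). The others are the 250 bases before the start, at chr8:75109259-75109508 for Mcm5 (plus strand), chr1:128359706-128359955 for Mcm6 (minus strand) and chr5:138171884-138172133 for Mcm7 (minus strand).
Mcm3: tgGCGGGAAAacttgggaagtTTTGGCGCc
Mcm5: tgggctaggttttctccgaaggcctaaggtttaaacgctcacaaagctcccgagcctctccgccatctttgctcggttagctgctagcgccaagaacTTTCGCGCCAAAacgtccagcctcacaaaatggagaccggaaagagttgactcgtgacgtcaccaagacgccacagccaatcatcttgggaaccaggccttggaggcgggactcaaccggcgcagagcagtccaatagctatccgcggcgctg
Mcm6: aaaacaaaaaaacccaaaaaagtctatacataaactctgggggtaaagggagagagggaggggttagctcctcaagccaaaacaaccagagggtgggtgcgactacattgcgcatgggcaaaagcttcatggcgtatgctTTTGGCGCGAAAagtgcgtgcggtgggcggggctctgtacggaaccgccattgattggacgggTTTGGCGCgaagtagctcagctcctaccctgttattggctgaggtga
Mcm7: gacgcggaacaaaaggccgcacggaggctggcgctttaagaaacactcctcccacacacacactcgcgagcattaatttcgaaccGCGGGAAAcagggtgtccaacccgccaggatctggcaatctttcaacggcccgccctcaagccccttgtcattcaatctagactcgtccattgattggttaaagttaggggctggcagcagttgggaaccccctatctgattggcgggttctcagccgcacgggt

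In Mcm5 and Mcm6 a pair of words on opposite strands overlapped, at positions -153 to -142 and -110 to -99 from the start. Mcm6 held a further match at -47 to -40. In the Mcm7 window shown the match lay at -165 to -158, and a second one at positions 17 to 24 of the transcript is not printed. A second annotated start of Mcm7 had no E2F word in its window. The CCAAT box, the word bound by NF-Y, was found on either strand for 8 of the 9 members, all but Tk1, against 41.4% of the other genes tested and 41.1% of all genes in the promoter table. The word TTTGAA, a form of the cell cycle homology region (CHR), was found for 1 member, Mcm2, against 14.2% of the other genes tested and 20.2% of all genes. The E2F and CCAAT matches did not overlap except at 1 base in Mcm7, at position 24. These letters are a description of the windows and do not show that a factor was bound. The 4 members with an E2F word had log2 fold changes between -0.75 and -0.61, within the range of the 5 members without one, -0.78 to -0.43.

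The array values are on the log2 scale, where a difference of 1 is a doubling, and levels of different genes are not comparable because each probe set has its own response. Array medians over the genes tested were 6.87 in the wild type heart and 6.84 in all 3 knockout hearts. Fbxo32 read between 5.56 and 5.65 on the knockout arrays, against 7.54 in the wild type. The knockout arrays were not alike in sex-linked transcripts. Xist, the RNA of the inactive X chromosome, stood at 9.18 and 9.52 in knockouts 1 and 2 but at 3.20 in knockout 3 and 4.13 in wild type 1. The Y-linked gene Eif2s3y had the opposite pattern, 3.31 and 3.64 against 8.49 and 8.57. Wild type 1 therefore shared its sex-linked pattern with knockout 3 only, and for this reason values are given array by array.

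All 10 replication genes read lower in the knockout mean than in the wild type heart, by 1.35-fold to 1.72-fold, but none passed the test. A lower knockout mean was found for 49.6% of all genes tested. With limma and Benjamini-Hochberg adjustment over all genes the adjusted p of the members ran from 0.776 to 0.936. The count called was 0 of 10, with 2 members (Mcm3 and Mcm4) at an unadjusted p under 0.05, and it was also 0 with both other variance models. Over all genes tested 0.00671% were called (1 gene, Hmox1), and 4.05% were lower at an unadjusted p under 0.05. Fbxo32, the gene of MAFbx, was not called either, at a log2 fold change of -1.93 (limma adjusted p = 0.0529). The median log2 fold change of the members was -0.65, against 0.00 over all genes tested. The smallest change, that of Tk1, rests on the brighter of its probe sets, and the other differed by only -0.02. Without knockouts 1, 2 and 3 in turn that median was -0.48, -0.57 and -0.87. In 9 of the 10 members every knockout array lay below the wild type array, which was so for 24.6% of all genes tested. The count was 8 when the dimmer probe set was taken for genes with several, as for Tk1. With a lone wild type array the smallest p that exact permutation allows is 0.25.

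The differences lay mainly in knockouts 1 and 2. The median difference of the members from wild type 1 was -0.90 in knockout 1 and -0.84 in knockout 2, and -0.21 in knockout 3. In all 10 members knockouts 1 and 2 both read below wild type 1 and below knockout 3, an order found in 21.5% of all genes tested. This is the same division of the arrays as that of Xist and Eif2s3y. Between the arrays that share low Xist, knockout 3 and wild type 1, the members differed by -0.36 (Mcm4) to 0.13 (Rrm2). A fit with Xist as a covariate returns these same differences, so it adds no separate test. No wild type array with high Xist was among these samples, and the part of sex in the larger differences was not tested.

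**Figure D1:**
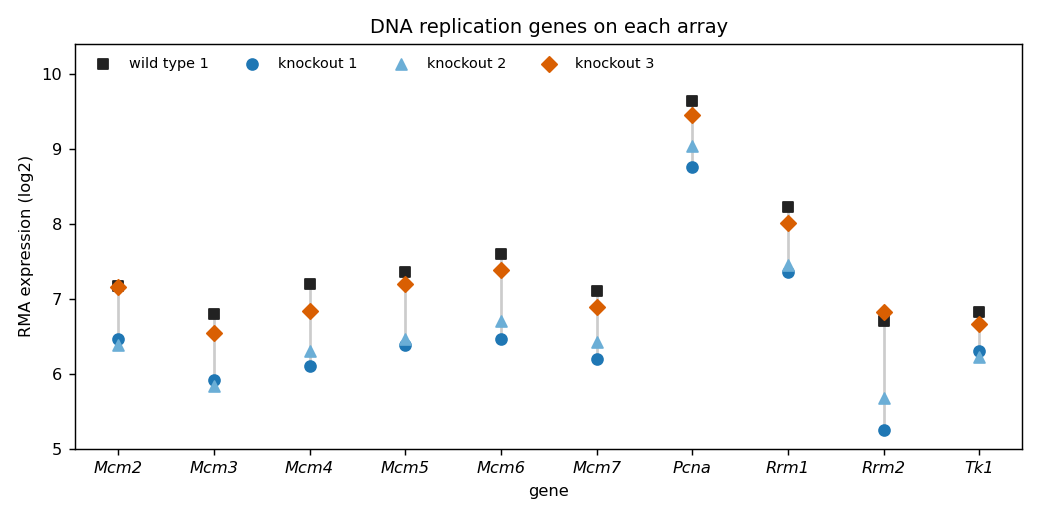
RMA expression (log2, vertical axis) of the 10 replication genes (horizontal axis) on each array, with 1 point per array and a grey line over their range. Knockouts 1 and 2 lie below wild type 1 and knockout 3 for every gene, and only for Rrm2 does knockout 3 lie above wild type 1. Heights are not comparable between genes.

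Among the helicase genes, Mcm2, whose product takes part in handing parental histones to the new strands, read 7.17 in the wild type and 6.46, 6.39 and 7.16 in knockouts 1, 2 and 3. Knockout 3 was thus within 0.01 of the wild type value, and this member gave the smallest fold change of the helicase genes, -0.50 (SE 0.31, limma adjusted p = 0.923). When arrays were centred on their medians knockout 3 no longer lay below the wild type array for Mcm2. Mcm3 read 6.80 in the wild type and 5.92, 5.84 and 6.54 in the knockouts, giving -0.70 ± 0.29 (log2 fold change ± SE; limma adjusted p = 0.853). Its knockout mean was 6.10 ± 0.38 (SD, n = 3), and all of its knockout values were lower than the wild type value.

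Mcm4, which with Mcm6 and Mcm7 forms a subcomplex with helicase activity of its own, had the largest knockout deficit of the members. It read 7.20 in the wild type and 6.11, 6.30 and 6.84 in the knockouts, giving -0.78 ± 0.29 (log2 fold change ± SE; limma adjusted p = 0.776). The corresponding values of Mcm6 were 7.60, then 6.47, 6.71 and 7.38, with giving -0.75 ± 0.34 (log2 fold change ± SE; limma adjusted p = 0.880). In both genes the order was the same, with knockout 1 lowest, knockout 2 next and knockout 3 nearest to the wild type. Mcm7 read 7.11 in the wild type and 6.20, 6.42 and 6.89 in the knockouts, giving -0.61 ± 0.27 (log2 fold change ± SE; limma adjusted p = 0.880). Mcm5, which neighbours Mcm2 at the gate of the ring, read 7.36 in the wild type and 6.38, 6.46 and 7.20 in the knockouts, giving -0.68 ± 0.33 (log2 fold change ± SE; limma adjusted p = 0.893).

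The 6 helicase subunits thus stood close together. Their differences from wild type 1 lay between -1.13 and -0.71 in knockout 1, between -0.96 and -0.69 in knockout 2 and between -0.36 and -0.01 in knockout 3. The ranges of knockouts 1 and 2 overlapped and neither reached that of knockout 3. Their knockout SDs were 0.35 to 0.47 (n = 3), so that the knockout arrays differed from each other by an amount of the same order as the difference between genotypes.

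Pcna read 9.64 in the wild type and 8.76, 9.04 and 9.45 in the knockouts, giving -0.56 ± 0.27 (log2 fold change ± SE; limma adjusted p = 0.906). A second Pcna probe set with the same annotated transcripts read 9.64, 8.74, 9.04 and 9.44. The values of the probe sets differed by at most 0.02 on any array. They may share probes, so their likeness is not independent evidence.

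In the ribonucleotide reductase pair, the large subunit gene Rrm1 read 8.23 in the wild type and 7.36, 7.45 and 8.01 in the knockouts, giving -0.62 ± 0.27 (log2 fold change ± SE; limma adjusted p = 0.880). The gene of the small, radical-bearing subunit, Rrm2, whose protein accumulates in S phase, read 6.70 in the wild type and 5.25, 5.68 and 6.83 in the knockouts. It had the widest range of the members, 1.58, wider than that of 99.2% of all genes tested. The difference of -0.78 ± 0.53 (log2 fold change ± SE; limma adjusted p = 0.936) depended on single arrays, with -0.45 without knockout 1, -0.66 without knockout 2 and -1.24 without knockout 3. Rrm2b, the alternative small subunit that is p53-induced and serves resting cells, read 6.33 in the wild type and 6.50, 6.55 and 6.03 in the knockouts, and did not share the low values of knockouts 1 and 2.

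Tk1, the cytosolic thymidine kinase, read 6.83 in the wild type and 6.30, 6.22 and 6.67 in the knockouts, giving -0.43 ± 0.22 (log2 fold change ± SE; limma adjusted p = 0.923), the smallest of the members. Its second probe set read 6.19 in the wild type and 6.12, 5.95 and 6.43 in the knockouts, a difference of -0.02 with knockout 3 above the wild type array. The probe sets therefore disagreed on the size of the difference, and the value for Tk1 is uncertain. The annotation used does not give which of them lies at the Tk1 locus, so the value of -0.43 may not come from that locus. Tk2, the mitochondrial thymidine kinase, read 6.25 in the wild type and 6.39, 6.37 and 6.30 in the knockouts.

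**Figure D2:**
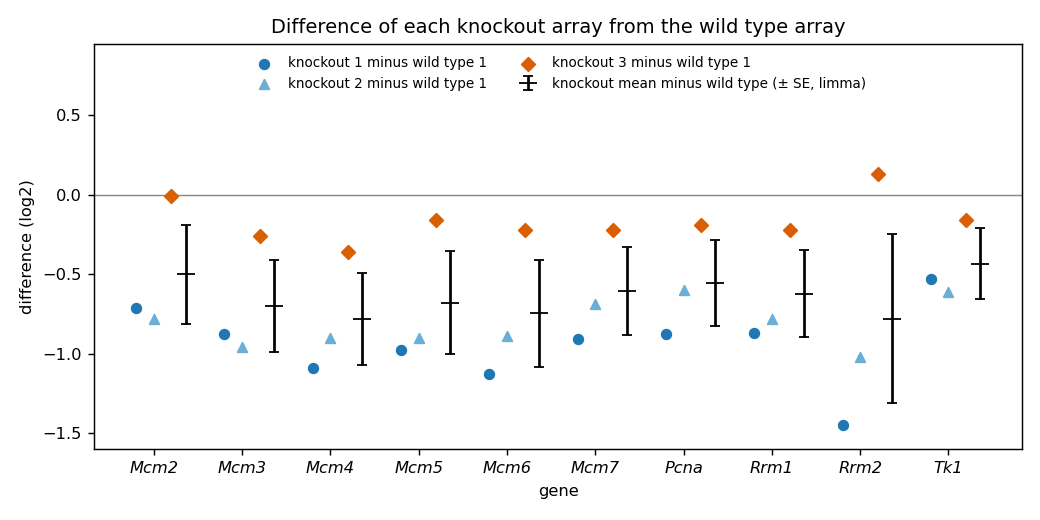
Difference from wild type 1 (log2, vertical axis) of each knockout array for the 10 replication genes (horizontal axis); the black dash is the knockout mean minus wild type with its limma SE. All knockout 1 and 2 points lie at -0.53 or lower, and knockout 3 points lie between -0.36 and 0.13.

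The rest of the replication pathway was described through 82 further genes in 8 lists, of which 80 were measured and 77 passed the filter. With limma 0 of the 77 were called, and 4 (Asf1b, Ctps, Prim2 and Ccne1) were lower and 0 higher at an unadjusted p under 0.05. That is 5.19% lower, near the 4.05% of all genes tested. Their median log2 fold change was -0.26, and 41 of the 77 lay below the wild type on every knockout array and 3 above (24.6% and 23.9% over all genes tested). The order with knockouts 1 and 2 below both other arrays held for 42 of them (54.5%, against 21.5% of all genes). In knockouts 1, 2 and 3 the median difference from wild type 1 was -0.37, -0.27 and -0.10.

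Among 9 tested origin licensing genes the median log2 fold change was -0.20. Of these, 4 lay below the wild type on all knockout arrays and 1 above (44.4% and 11.1%). Over all genes tested these shares were 24.6% and 23.9%. Orc6, a subunit of the origin recognition complex, read 7.43 in the wild type and 6.75, 7.01 and 7.19 in the knockouts (limma adjusted p = 0.904), while Orc2 differed by -0.26. Cdc6, the loading ATPase, differed by -0.32, and Cdt1, its partner in loading, by -0.20, with knockout 3 equal to the wild type at 6.41. The gene above the wild type on every knockout array was Gmnn, which encodes geminin, the inhibitor of Cdt1. It read 5.38 in the wild type and 5.79, 6.13 and 5.61 in the knockouts, giving 0.46 ± 0.23 (log2 fold change ± SE; limma adjusted p = 0.923).

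Of 9 genes that activate the helicase, 7 (77.8%) lay below the wild type on every knockout array and 0 above, with a median of -0.40. Over all genes tested 24.6% lay below and 23.9% above. Dbf4, the regulatory subunit of the kinase that fires origins, read 6.14 in the wild type and 5.06, 5.59 and 6.07 in the knockouts, nearest to the wild type in knockout 3. Gins1 differed by -0.47, Ticrr by -0.43 and Mcm10 by -0.46, and for Mcm10 knockout 3 (5.68) read above the wild type (5.56). Limma adjusted p-values of the list ran from 0.923 to 0.996.

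All 11 polymerase and primase genes had a knockout mean below the wild type value, against 49.6% of all genes tested. Their median was -0.42, and 9 (81.8%) lay below the wild type on every knockout array, against 24.6%. Prim2, the large primase subunit, read 6.41 in the wild type and 5.59, 5.80 and 5.82 in the knockouts, giving -0.67 ± 0.19 (log2 fold change ± SE; limma adjusted p = 0.560, unadjusted p = 0.00846). Unlike the members, it was as low in knockout 3 as in knockout 2. Prim1, the catalytic primase subunit, read 5.73 in the wild type and 4.68, 5.03 and 6.02 in the knockouts, so the primase pair differed in knockout 3. Pole and Pole2, subunits of the leading-strand polymerase, differed by -0.63 and -0.60. Pold3, named after its values were seen, read 7.24 in the wild type and 6.86, 6.88 and 6.88 in the knockouts, with the smallest knockout SD of the 77 genes, 0.01 (n = 3; limma adjusted p = 0.880).

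The 12 tested clamp loader and strand completion genes had a median of -0.12. Of these, 6 lay below the wild type on every knockout array (50%, against 24.6% of all genes tested). Dna2, a nuclease and helicase of flap processing, differed by -0.51, Rfc3 by -0.41 and Rfc5 by -0.28, the latter pair being subunits of the loader that places Pcna on DNA. Lig1, the ligase that joins Okazaki fragments, read 6.85 in the wild type and 6.23, 6.10 and 6.90 in the knockouts, and Fen1, the flap nuclease, differed by -0.18. Limma adjusted p-values in this list were 0.880 or higher.

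The 12 other nucleotide supply genes had a median of -0.03. On every knockout array 5 lay below and 2 (Dut and Tk2) above the wild type (41.7% and 16.7%). Over all genes tested these shares were 24.6% and 23.9%. Ctps, a CTP synthase, read 8.03 in the wild type and 7.02, 7.31 and 6.96 in the knockouts, giving -0.93 ± 0.20 (log2 fold change ± SE; limma adjusted p = 0.411, unadjusted p = 0.00255). Its lowest value was in knockout 3, where the members were nearest to the wild type. Tyms, thymidylate synthase, read 6.41 in the wild type and 5.25, 6.14 and 6.36 in the knockouts, low mainly in knockout 1. Cmpk1, a nucleoside monophosphate kinase, differed by -0.43 and Umps, which makes UMP, by -0.33.

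All 6 genes of replication-coupled chromatin had a knockout mean below the wild type value (median -0.34), against 49.6% of all genes tested. In all 6 knockouts 1 and 2 lay below both other arrays, an order found in 21.5% of all genes tested. Asf1b, a histone chaperone of proliferating cells, read 7.98 in the wild type and 6.49, 6.75 and 7.27 in the knockouts, giving -1.14 ± 0.30 (log2 fold change ± SE; limma adjusted p = 0.530, unadjusted p = 0.00623). Uhrf1 and Dnmt1, which copy DNA methylation to the new strand, differed by -0.43 and -0.32, and the chromatin assembly gene Chaf1a by -0.35. In knockout 3, 2 of the 6 read at or above the wild type array (33.3%, against 49.3% of all genes tested). Uhrf1 (6.23 against 6.15) was among them.

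Fork protection and checkpoint genes (8 tested) had a median of -0.23, with Tipin at -0.44, Wdhd1 at -0.42, the checkpoint kinase gene Chek1 at -0.35 and Dtl at -0.26 (limma adjusted p of 0.923 or higher). In the 10 genes of E2F and cyclin E control, which act upstream of the members, the median was -0.15. Of these 10, 2 lay below the wild type on every knockout array (20%, against 24.6% of all genes tested). Ccne1, the gene of cyclin E1, read 7.0 in the wild type and 6.32, 6.11 and 6.68 in the knockouts, giving -0.63 ± 0.24 (log2 fold change ± SE; limma adjusted p = 0.816, unadjusted p = 0.0367), and E2f2 differed by -0.28. Rbl1, the gene of the pocket protein p107, and E2f8 differed by -0.41 and -0.38. E2f1 read 6.23 in the wild type and 5.78, 6.10 and 6.57 in the knockouts, and Ccne2 4.81, then 4.51, 4.43 and 5.19. In knockout 3, 6 of the 10 genes read at or above the wild type array (60%, against 49.3% of all genes tested). Rbl1, E2f8, E2f1 and Ccne2 were among them.

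**Figure D3:**
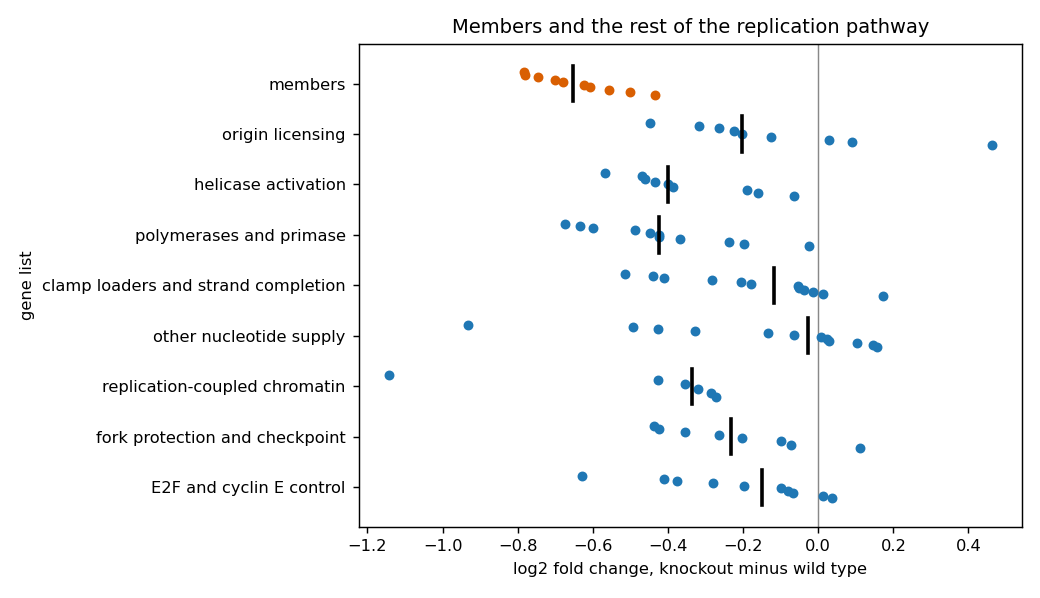
Log2 fold change (knockout minus wild type, horizontal axis) of the 10 members (orange) and of the tested genes of 8 further replication lists (blue), by list on the vertical axis, with the list median as a black bar. The members lie between -0.78 and -0.43 and the list medians between -0.42 (polymerases and primase) and -0.03 (other nucleotide supply).

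Genes of later cell cycle phases divided the arrays in the same way. Of 7 tested S to M phase markers all had knockouts 1 and 2 below both other arrays, against 21.5% of all genes tested. In knockout 3, 6 of them read above the wild type, where 49.3% of all genes tested were at or above it. Their differences there were small, from -0.40 (Plk1) to 0.24 (Mki67). Their median differences from wild type 1 were -1.61, -1.24 and 0.13 in knockouts 1, 2 and 3. The 7 markers spanned from 0.84 (Birc5) to 2.28 (Mki67) over the 4 arrays, a range that overlaps the 0.61 to 1.58 of the replication members, with Top2a at 2.19 and Ccna2 at 2.11. In knockout 3 the members were at -0.21 in the median where these markers were at 0.13.

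The 10 genes with the profile most like the members' mean were found by the root mean square distance of centred values over the 4 arrays, among 602 other tested genes with a range of at least 1. In order they were Adgre1 (distance 0.045), Adamts8, Myof, Incenp, Tpm3, Prr11, Tpm4, Dlgap5, Adamts4 and Marcksl1 (0.086). Adgre1, the gene of the macrophage antigen F4/80, read 7.93 in the wild type and 6.87, 7.07 and 7.67 in the knockouts. The members themselves lay at distances from 0.037 (Mcm5) to 0.294 (Rrm2), with Tk1 at 0.169, Mcm2 at 0.094 and Pcna at 0.092. These distances are not comparable with those of the 10 genes named. Members form part of the mean, and the limit on range was not applied to them. The mean profile ran from 0.48 in wild type 1 to -0.46 in knockout 1, less than that limit. Genes of smaller range may thus lie nearer to it than those named. With 4 arrays, many genes can share an order.

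In bulk RNA, fewer cells of a type and less RNA per cell cannot be told apart, and markers of some heart cell types also differed between these arrays. All 8 macrophage markers lay below the wild type on every knockout array, which was so for 24.6% of all genes tested. In knockout 3 their differences ran from -1.26 (Itgam) to -0.03 (C1qa), so some were close to the wild type. Their summed log2 level was 70.84 in the wild type and 62.02, 62.79 and 66.13 in the knockouts. Here and below, sums run over all measured genes of a list, those under the filter included. They grow with the number of genes, so they are comparable between arrays but not between lists. The defining genes Cd68, Csf1r and Adgre1 were measured well above the filter on every array. The 7 fibroblast markers summed to 73.74 in the wild type and to 67.64, 71.44 and 77.64 in the knockouts, highest in knockout 3. Col1a1 and Postn were low in knockouts 1 and 2, whereas Dcn and Lum read above the wild type on all knockout arrays. The 5 endothelial markers summed to 44.76 in the wild type and 44.84, 45.50 and 47.09 in the knockouts. The part of these cell types in the values of the replication genes was not tested.

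The 6 cardiomyocyte markers, which define the labelled tissue, summed to 77.43 in the wild type and 78.30, 78.37 and 77.54 in the knockouts, and Myh6 stood between 13.12 and 13.28. Smooth muscle and pericyte markers summed to 43.50, then 42.00, 43.42 and 42.91 over 5 genes. Among them Cnn1 lay below the wild type on every knockout array, at 7.36 against 6.31, 6.76 and 6.65 (log2 fold change -0.79, limma adjusted p = 0.564), and Tagln read 8.49, then 7.65, 8.48 and 8.04. Of the lymphocyte markers 5 of 6 were measured (22.42, then 23.08, 23.39 and 23.88), and the B cell genes Cd79a and Ms4a1 lay below the filter. The 5 neutrophil markers summed to 23.58, then 22.78, 22.14 and 23.72, with S100a8, Ly6g and Retnlg below the filter, and of 4 erythroid markers only Alas2 was measured.

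**Figure D4:**
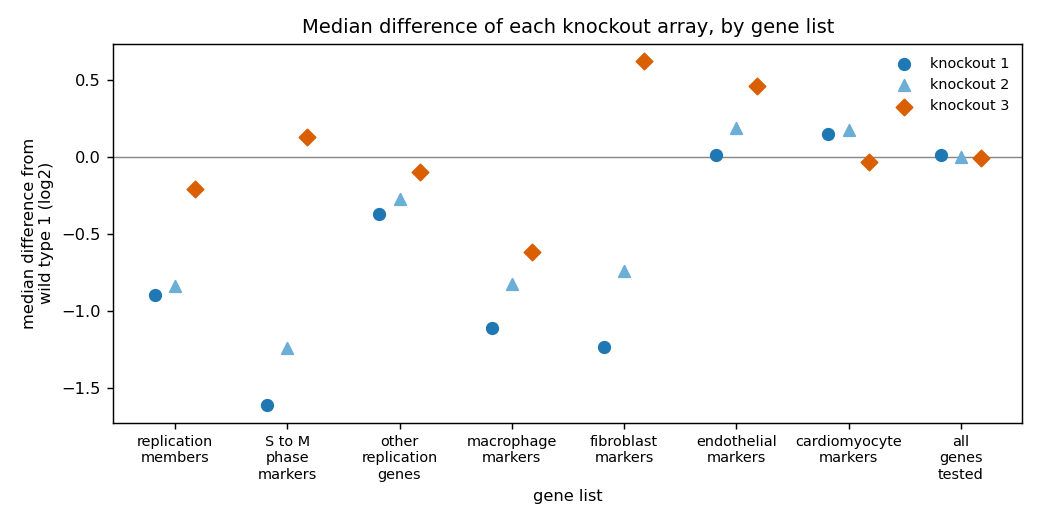
Median difference from wild type 1 (log2, vertical axis) of each knockout array for 8 gene lists (horizontal axis), over the genes that passed the filter. The replication members stand at -0.90, -0.84 and -0.21, the S to M phase markers at -1.61, -1.24 and 0.13, and the macrophage markers at -1.11, -0.83 and -0.62 in knockouts 1, 2 and 3.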

How the data were processed

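Total RNA from 4 hearts was labelled as biotinylated cRNA and hybridised to Affymetrix Mouse Gene ST arrays. The authors deposited log2 values, made with Affymetrix Expression Console and RMA per the submitters' processing notes; versions and genome build were not given in the sources used here. This method equalises the arrays' distributions, which hides any shift common to most genes, and it compresses differences between dim genes. The number of arrays limits precision.

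Of 35556 probe sets, 21789 had 1 gene symbol in the platform annotation, 1621 had several and 12146 none. Genes under the 25th percentile of those with 1 symbol (4.71) were left out. The comparison of genotypes used limma 3.58.1 under R 4.3.3 (lmFit, eBayes, two-sided, knockout minus wild type; Benjamini-Hochberg over 14914 genes, threshold 0.05), checked on simulated data. The lone wild type array was assumed to vary like the knockout arrays (2 residual and 5.04 prior degrees of freedom). The simulated arrays were drawn under the same assumption, so they cannot test it. Named were all members, the 4 pathway genes per list with the largest absolute change, 11 fixed pathway genes, Ccna2, Top2a, Mki67, Fbxo32, Xist, Eif2s3y, the 10 genes of most similar profile, and marker genes; Pold3, Dut and Hmox1 were named after their values were seen. Members, lists and alternatives were chosen with earlier results of these data known. Alternatives were other normalizations, filters, probe set rules and variance models, leaving out each knockout array, and Xist as a covariate.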

Additional observations from a re-analysis of the deposited data

How the results depend on the processing

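Under the 12 alternatives 118 of 119 member fold changes stayed negative and 0 passed the limma threshold (lowest adjusted p = 0.344); Rrm2 was not tested with the filter at the 50th percentile. The filters and variance models cannot change a fold change, so this count repeats the main values for them. The probe set rules changed only Pcna and Tk1. The positive value was that of Rrm2 with Xist as a covariate (0.13), a fit that sets knockout 3 against wild type 1. With that covariate the median was -0.205 for the members and -0.10 for the other replication genes. The members with every knockout array below the wild type numbered 8 to 10. The count of genes called over the whole table was 1, and 0 with quantile normalization renewed (859 at an unadjusted p under 0.05), without a filter (1045) and with the Xist covariate (684). It was 2 with the filter at the 50th percentile, 7 with the probe set of lowest mean, 11 with trend and robust eBayes and 9 without moderation. Leaving out each knockout array gave 0 to 0 genes (435 to 1581 unadjusted). For Tk1 the fold change was -0.23 with the mean of its probe sets and -0.02 with the lower one. The causes were not tested. No paired analysis was possible because there was 1 wild type array and the labels do not pair hearts.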
